A study of Homo sapiens with 6 samples.

Results

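The genes described here are 9 oncofetal and progenitor markers of the liver, taken by symbol from the deposited count table, namely GPC3, DLK1, LIN28B, IGF2BP1, IGF2BP3, SOX9, EPCAM, KRT19 and SPP1. All 9 were among the 20030 genes of the table, and all 9 were among the 12369 genes with enough counts to be tested. They were measured in HepG2, an established human hepatoma line, in 3 libraries from cells with a control short hairpin RNA (sh-ctrl, the controls) and 3 from cells with a hairpin against KIF11 (sh-KIF11, the knockdown), the kinesin motor that pushes the poles of the mitotic spindle apart. Both groups received their hairpin stably from a lentivirus, and both were sequenced as stranded poly(A) RNA. The paper sequenced these cells as a part of its work on how KIF11 represses cellular senescence. It reports that KIF11 knockdown made HepG2 cells senescent and lowered their colony formation. The model is 1 cell line and 1 hairpin sequence in the study's oligo list, the time after infection is not given in the sources used here, and the labels do not say whether the libraries of a group came from separate cultures, so p-values measure only the spread between these libraries, which may be technical.

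Oncofetal genes are active in the fetal liver, are mostly silenced in the adult hepatocyte, and come back in many liver cancers. LIN28B and the IGF2BP proteins belong to 1 circuit in this class: LIN28B blocks the maturation of let-7 microRNAs, mature let-7 in turn represses LIN28B and the IGF2BP mRNAs through sites in their 3′ untranslated regions, and the IGF2BP proteins stabilise target mRNAs such as those of growth genes. SOX9, EPCAM, KRT19 and SPP1 are shared by bile duct cells and bipotent liver progenitors, and in liver tumours they mark a progenitor-like state.

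The circuit can be read from sequence, and 3 of the 9 genes carry the let-7 target site. The mature let-7 family has 9 members in RefSeq (GRCh38.p14) with the same seed, bases 2 to 8, and 3 of them are shown with the seed in capitals. The site that pairs with this seed, CTACCTC, was searched on the sense strand of the 3′ untranslated regions of GENCODE 29 transcripts (GRCh38), and the matches in LIN28B, IGF2BP1 and IGF2BP3 are printed with the site in capitals because these 3 genes moved in different ways.
hsa-let-7a-5p: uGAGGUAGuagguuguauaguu
hsa-let-7g-5p: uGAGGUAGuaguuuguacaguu
hsa-miR-98-5p: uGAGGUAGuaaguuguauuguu
LIN28B site 1 (chr6:105078813-105078834, plus strand): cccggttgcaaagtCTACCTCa
LIN28B site 2 (chr6:105081240-105081261, plus strand): actgatgatagtaaCTACCTCt
LIN28B site 3 (chr6:105081422-105081443, plus strand): tttacagcaaaaggCTACCTCa
LIN28B site 4 (chr6:105082861-105082882, plus strand): aatgatggtgttgaCTACCTCt
IGF2BP1 site 1 (chr17:49051062-49051083, plus strand): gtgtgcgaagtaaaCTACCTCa
IGF2BP1 site 2 (chr17:49053699-49053720, plus strand): agcagtgctagtaaCTACCTCa
IGF2BP1 site 3 (chr17:49054353-49054374, plus strand): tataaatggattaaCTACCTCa
IGF2BP1 site 4 (chr17:49054998-49055019, plus strand): cacttttgttttatCTACCTCt
IGF2BP3 site (chr7:23311795-23311816, minus strand): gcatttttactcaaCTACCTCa

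LIN28B and IGF2BP1 thus held 4 sites each and IGF2BP3 held 1, while GPC3, DLK1, SOX9, EPCAM, KRT19 and SPP1 held none in the transcript with the longest 3′ untranslated region. Of 18797 genes of the table with such a region, 9.78% held the site. A match describes the letters of the window, and the libraries hold no measurement of let-7 itself.

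Depth was similar in all libraries, at 18167773 to 19583282 counts each. The counts were scaled with edgeR's TMM factors, which were 0.922 to 0.926 in sh-ctrl and 1.08 to 1.09 in sh-KIF11, and the normalised level is given as CPM, the count brought to a common library size after this scaling. With TMM the log2 fold changes of the tested genes had their median at 0.00, whereas with library totals alone it lay at 0.24, so every change below is measured against the middle of this set. Libraries of 1 group differed by more than counting noise (chi-square per degree of freedom 2.67 to 8.11), and libraries of different groups by 84.0 to 102, so each was kept as a replicate. Within a group the highest values, 8.11 and 6.25, were those of sh-ctrl replicate 3 against the other controls. This library held the lowest control CPM of IGF2BP1 and the highest of EPCAM and SPP1. The hepatocyte genes ALB and APOB and the fetal gene AFP were abundant in the controls, as the hepatoma label implies, with at least 47256 counts each. KIF11, the target of the hairpin, was counted 1976, 2088 and 2039 times in the controls and 1448, 1478 and 1240 times after knockdown, a log2 fold change of -0.75 (standard error 0.0573, edgeR adjusted p = 4.22e-15).

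The hairpin was checked against the members because a guide strand can also bind other mRNAs through its seed. Its target in KIF11 and its guide strand, with the seed in capitals, are as follows.
sh-KIF11 target: gcgcccattcaatagtagaat
sh-KIF11 guide: aTTCTACTattgaatgggcgc
The target was found in the transcripts of 1 gene, KIF11, among all GENCODE 29 transcripts. The match to the guide's seed, AGTAGAA, was in the 3′ untranslated regions of 12.5% of the genes of the table. Among the members, SOX9 held 1 such match, IGF2BP1 held 2 and the other 7 held none.

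The threshold of 0.05 on the adjusted p (edgeR, quasi-likelihood, Benjamini-Hochberg over all tested genes) was passed by 8 of the 9 members and by 69.1% of all tested genes. KRT19 and IGF2BP3 rose (34.4% of tested genes were higher), GPC3, DLK1, LIN28B, SOX9, EPCAM and SPP1 fell (34.7% were lower), and IGF2BP1 did not pass. KRT19 was the only member that changed by at least 2-fold, which 11.7% of tested genes did. The normalised values of the groups did not overlap in 8 members, IGF2BP1 being the exception, and in 71.2% of tested genes. The 9 members had a median log2 fold change of -0.29 against 0.00 for all tested genes with TMM, and -0.06 against 0.24 with library totals alone. The median absolute change was 0.52 for the members and 0.33 for all tested genes.

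**Figure D1:**
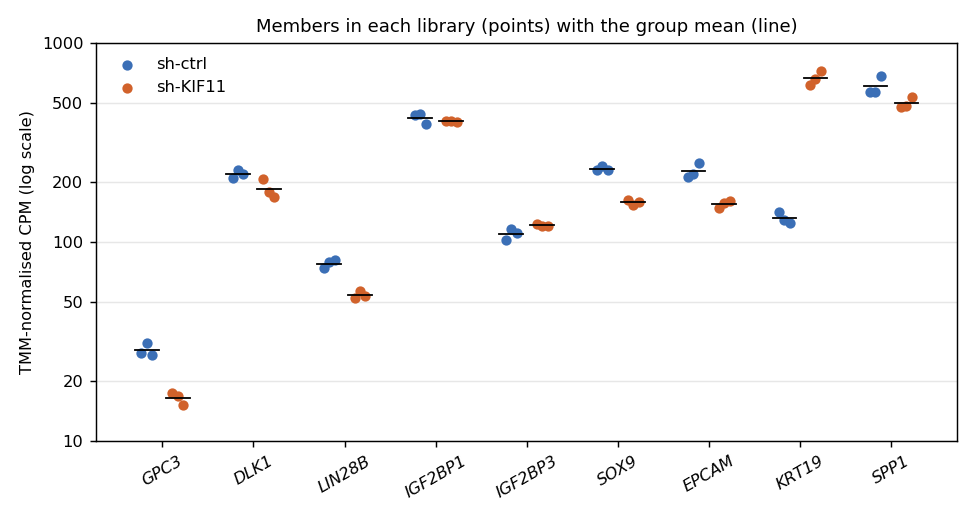
Normalised level of each member (vertical axis, TMM-normalised CPM on a log scale) in the 3 sh-ctrl and the 3 sh-KIF11 libraries (points), with the group mean as a line. KRT19 moved from 125 to 141 CPM in sh-ctrl to 611 to 724 CPM in sh-KIF11, while no other member changed by 2-fold between the group means.

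The fetal surface genes GPC3 and DLK1 were both lower in sh-KIF11, GPC3 by more. GPC3, a heparan sulfate proteoglycan of the cell surface that serves as a serum and tissue marker of liver cancer, was counted 492, 563 and 456 times in the control libraries and 350, 349 and 300 times after knockdown. The highest knockdown library lay below the lowest control. GPC3 fell from 28.6 ± 2.27 to 16.5 ± 1.16 CPM (here and below mean ± SD of 3 libraries), with a log2 fold change of -0.79 (standard error 0.0855, 95% interval -0.97 to -0.62, edgeR adjusted p = 7.99e-11). It ranked 742 from the bottom among 12369 genes by log2 fold change. GPC3 was also the member with the fewest counts, and its interval was the widest.

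DLK1, a membrane protein of fetal hepatoblasts with the fold of a Notch ligand, was counted 3746, 4120 and 3681 times in the control libraries and 4129, 3666 and 3298 times after knockdown. The raw counts of the groups overlapped, and the highest knockdown library exceeded all 3 controls. After TMM scaling the groups separated narrowly, at 210 to 228 CPM in the controls and 167 to 206 CPM after knockdown. The log2 fold change of DLK1 was -0.25 (standard error 0.0565, edgeR adjusted p = 0.000123), and it was -0.02 with library totals alone (edgeR adjusted p = 0.706). Its call therefore rests on the scaling. Within a library the log2 ratio of GPC3 to DLK1, which no scaling of the library can move, was 0.53 lower in sh-KIF11. It did not overlap between the groups (two-sided exact permutation p = 0.1, the lowest value that 3 against 3 can give). After adjustment over the 4 pairs of members compared the permutation p was also 0.1. How often ratios of other gene pairs overlap was not computed, here and below.

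The list of fetal liver and imprinted growth genes holds GPC3 and DLK1 and 13 other genes. Besides these members 8 were tested, of which 4 were lower and 2 higher with TMM, with a median log2 fold change of -0.16 (0.00 over all tested genes, here and for the lists below, whose counts include the members they hold unless said otherwise). With library totals alone the list, members included, had 4 lower and 3 higher. IGF2, the fetal growth factor, fell from 2983 ± 208 to 868 ± 33.5 CPM (log2 fold change -1.78, edgeR adjusted p = 3.96e-29). AFP, the fetal serum protein used as a liver cancer marker, fell from 2825 ± 166 to 1200.4 ± 48.5 CPM (log2 fold change -1.23, edgeR adjusted p = 4.92e-24). GRB10, an imprinted adaptor that dampens insulin and IGF signalling, rose with a log2 fold change of 1.54, and SALL4, a zinc finger factor of the fetal liver, rose by 0.97 from a low level of 1.42 ± 0.331 CPM. The change of DLK1 was thus small beside those of IGF2 and AFP in the same libraries, and the change of GPC3 lay between.

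Of the other 3 glypicans tested, 2 rose and 1 did not pass. GPC1 rose from 21.2 ± 2.36 to 46.1 ± 4.99 CPM (log2 fold change 1.12, edgeR adjusted p = 3.34e-15), GPC2 rose by 1.24 from under 1 CPM, and GPC6 had a log2 fold change of -0.12 (edgeR adjusted p = 0.0688). Among the enzymes that build and trim heparan sulfate chains, SULF2, which removes sulfate groups outside the cell, rose from 209, 175 and 211 counts to 1309, 1474 and 1519 (log2 fold change 2.66, edgeR adjusted p = 1.65e-27). HS6ST1, which adds sulfate groups, fell by 1.23 on the log2 scale, and EXT2, a subunit of the chain polymerase, fell by 0.56. In the whole list 3 of 12 tested genes rose, 6 fell and 3 did not pass (median log2 fold change -0.18).

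The RNA-binding members did not move together. LIN28B was counted 1310, 1425 and 1364 times in the control libraries and 1052, 1174 and 1052 times after knockdown, without overlap. LIN28B fell from 77.7 ± 3.83 to 54.2 ± 2.26 CPM (log2 fold change -0.52, standard error 0.0602, edgeR adjusted p = 4.80e-10). Its paralog LIN28A had at most 1 count in any library, so LIN28B was the LIN28 gene detected in these cells.

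IGF2BP1, which binds and stabilises mRNAs of fetal growth genes, was counted 7684, 7897 and 6588 times in the control libraries and 8153, 8381 and 7848 times after knockdown. Its normalised levels overlapped, at 390 to 438 CPM in the controls and 398 to 406 CPM after knockdown. The log2 fold change of IGF2BP1 was -0.06 (95% interval -0.16 to 0.04, edgeR adjusted p = 0.295), and it was 0.17 with library totals alone (edgeR adjusted p = 0.00187). The lowest sh-ctrl library decided part of this value: without sh-ctrl replicate 3 the log2 fold change was -0.11 (edgeR adjusted p = 0.00931).

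IGF2BP3, a close paralog of IGF2BP1, was counted 1824, 2084 and 1868 times in the control libraries and 2462, 2495 and 2371 times after knockdown. The sh-KIF11 libraries sat close together at 120 to 123 CPM, above the sh-ctrl libraries at 102 to 115 CPM. The log2 fold change was 0.15 (standard error 0.0529, edgeR adjusted p = 0.0137), the smallest among the called members, and it was 0.10 without sh-ctrl replicate 1 (adjusted p = 0.102, edgeR) and 0.14 without sh-KIF11 replicate 1 (adjusted p = 0.0513, edgeR). The third paralog, IGF2BP2, was lower by 0.12 on the log2 scale (edgeR adjusted p = 0.036).

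Ratios within a library, which do not depend on scaling, were compared for these members. The log2 ratio of IGF2BP1 to IGF2BP3 moved from 1.94 ± 0.129 in the controls to 1.73 ± 0.0121 after knockdown, and that of LIN28B to IGF2BP1 from -2.43 ± 0.144 to -2.89 ± 0.0592. Neither ratio overlapped between the groups (two-sided exact permutation p = 0.1 for each, the lowest possible, and 0.1 after adjustment over the 4 pairs). The gap was narrow for IGF2BP1 to IGF2BP3, at 1.82 in the lowest control and 1.75 in the highest knockdown library. Of single tested genes 71.2% did not overlap either. In these libraries IGF2BP1 was lower relative to IGF2BP3, and LIN28B lower relative to IGF2BP1, after knockdown.

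**Figure D2:**
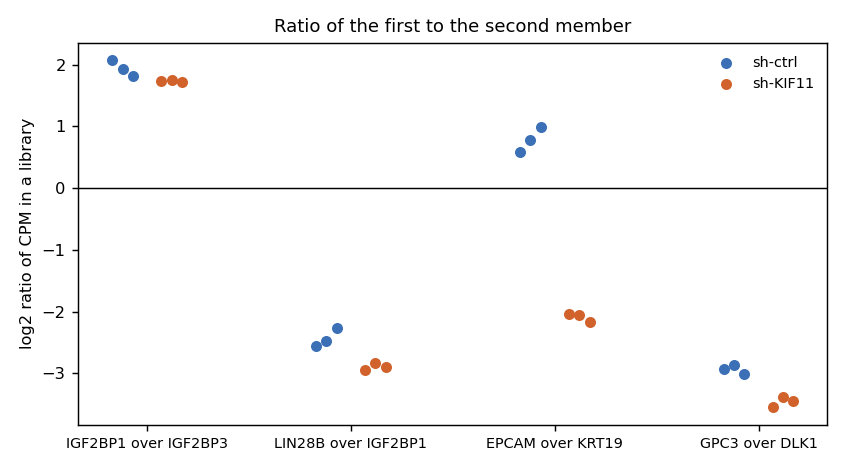
log2 ratio of the CPM of 2 members within each library (vertical axis) for the 4 pairs compared, sh-ctrl and sh-KIF11 libraries as points. No pair overlapped between the groups, and the EPCAM to KRT19 ratio changed sign, from between 0.59 and 0.99 to between -2.17 and -2.05.

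The list of the LIN28 and let-7 circuit, which includes LIN28B, IGF2BP1 and IGF2BP3, moved in both directions. Of 17 tested genes 4 rose, 7 fell and 6 did not pass with TMM (median log2 fold change 0.02; 3 higher, 6 lower and a median of 0.03 over the 14 that are no members), but with library totals alone 11 rose and 3 fell. TUT7 (listed as ZCCHC6), a terminal uridylyl transferase that marks let-7 precursors, rose from 41.4 ± 3.39 to 68.5 ± 2.38 CPM (log2 fold change 0.73, edgeR adjusted p = 8.28e-13), TUT4 (listed as ZCCHC11) rose by 0.22, and DICER1, which cuts the precursors, rose by 0.36. ARID3A, a DNA-binding factor and known let-7 target, fell by 0.55 on the log2 scale, and TRIM71, a stem cell regulator with 6 sites in its 3′ untranslated region, fell by 0.35. HMGA2, another classic target, had a log2 fold change of 0.05 (edgeR adjusted p = 0.44).

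Of the 18 genes of this list, 12 held the let-7 site in the 3′ untranslated region of at least 1 transcript, against 10.6% of the genes of the table by the same rule. A longer region has more places for a match. The lengths, up to 7421 bases in this list, were not taken into account, here or for the shares of genes with a match given above. Among all 12369 tested genes 34.7% fell and 34.4% rose with TMM (median log2 fold change 0.00). With library totals alone 2373 of them fell and 6621 rose (median 0.24). Of the 11 site carriers of the list that were tested, 7 fell and 1 rose with TMM (median -0.20). With library totals alone 3 carriers fell and 5 rose (median 0.04). Of the 6 genes without the site, 3 rose and 3 did not pass with a median of 0.17 with TMM, and all 6 rose with a median of 0.40 with library totals alone. The list was drawn up from known let-7 regulators and targets, so the site and the role go together, and no test was made of this difference.

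The biliary and progenitor members moved in opposite directions: SOX9, EPCAM and SPP1 fell, and KRT19 rose 5.05-fold. KRT19, the acidic keratin of bile duct cells and a marker of progenitor-like liver tumours, was counted 2513, 2318 and 2106 times in the control libraries and 12267, 13538 and 14278 times after knockdown. The lowest knockdown library had over 4 times the counts of the highest control. KRT19 rose from 131 ± 8.45 to 663 ± 56.8 CPM (log2 fold change 2.34, standard error 0.0574, 95% interval 2.22 to 2.45, edgeR adjusted p = 8.18e-32). It ranked 287 from the top among 12369 genes by log2 fold change. Leaving out each library in turn moved the value between 2.27 and 2.39, and with library totals alone it was 2.57.

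SOX9, the transcription factor that sets bile duct and progenitor identity, was counted 4081, 4345 and 3879 times in the control libraries and 3236, 3175 and 3122 times after knockdown, with no overlap. SOX9 fell from 233 ± 6.62 to 158 ± 3.99 CPM (log2 fold change -0.56, standard error 0.0492, edgeR adjusted p = 2.17e-13). EPCAM, an adhesion protein of the progenitor surface, was counted 3788, 3969 and 4181 times in the control libraries and 2969, 3246 and 3172 times after knockdown, also with no overlap. EPCAM fell from 227 ± 18.6 to 155 ± 6.58 CPM (log2 fold change -0.55, standard error 0.0539, edgeR adjusted p = 7.20e-12). SOX9 and EPCAM thus fell by nearly the same amount while KRT19 rose.

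The log2 ratio of EPCAM to KRT19 within a library was 2.88 lower in sh-KIF11, without overlap (two-sided exact permutation p = 0.1, the lowest possible, and 0.1 after adjustment over the 4 pairs). KRT19 supplied 5.91 to 7.08% of the counts of the 9 members in the sh-ctrl libraries and 27.8 to 31.1% in the sh-KIF11 libraries.

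SPP1, the secreted matrix protein osteopontin, was counted 10047, 10229 and 11496 times in the control libraries and 9524, 9928 and 10466 times after knockdown, and the raw counts overlapped. Normalised levels were 563, 567 and 681 CPM in sh-ctrl and 475, 480 and 531 CPM in sh-KIF11, with the high sh-ctrl value in replicate 3. The log2 fold change of SPP1 was -0.29 (standard error 0.0565, edgeR adjusted p = 2.34e-05), and it was -0.19 without sh-ctrl replicate 3 (edgeR adjusted p = 6.95e-05). With library totals alone it was -0.06 (edgeR adjusted p = 0.377). Like that of DLK1, this call rests on the scaling.

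**Figure D3:**
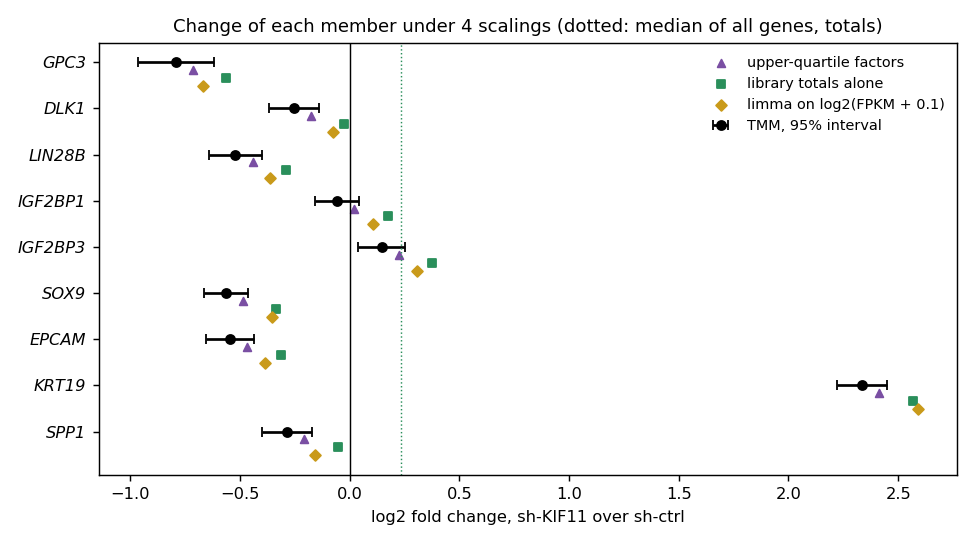
log2 fold change of each member, sh-KIF11 over sh-ctrl (horizontal axis), from the TMM fit with its 95% interval (circles) and from 3 other scalings (coloured symbols), with the median of all tested genes under library totals alone as a dotted line. KRT19 stayed above 2 and GPC3, LIN28B, SOX9 and EPCAM below 0 in all 4, while IGF2BP1 changed sign.

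Per transcript length, in the deposited FPKM values, KRT19 went from the third to the first place among the members. In sh-ctrl the order was SPP1 (mean 163 FPKM), EPCAM (134), KRT19 (66.8), SOX9 (47.7), DLK1 (36.1), IGF2BP1 (35.5), IGF2BP3 (16.2), LIN28B (14.1) and GPC3 (7.79 FPKM), and of these neighbours DLK1 and IGF2BP1 overlapped between libraries. In sh-KIF11 KRT19 led at 404 FPKM, SPP1 and EPCAM followed at 145 and 102 FPKM, and IGF2BP1, SOX9 and DLK1 (38.2, 37.3 and 34.3 FPKM) overlapped with their neighbours. IGF2BP3, LIN28B and GPC3 kept the last places at 20.1, 10.9 and 4.84 FPKM.

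KRT19 was not alone among the keratins in rising, but the main keratin pair of hepatocytes did not rise with it. KRT8 and KRT18, the keratins that pair in simple epithelia, were lower by 0.21 and 0.31 on the log2 scale with TMM (edgeR adjusted p = 0.000271 and 7.34e-07), though KRT8 was at 844 FPKM in sh-ctrl and 848 FPKM in sh-KIF11. KRT18 had means of 473 FPKM in sh-ctrl and 439 FPKM in sh-KIF11, so KRT19 came close to it per length in sh-KIF11. KRT80 rose from 2.26 ± 0.611 to 15.9 ± 3.91 CPM (log2 fold change 2.81, edgeR adjusted p = 3.07e-18), KRT20, an intestinal keratin, rose from 0.522 ± 0.426 to 3.15 ± 0.766 CPM, and KRT23 rose by 0.44 on the log2 scale. KRT7, the other keratin of bile ducts, stayed under the filter with counts of 3, 4 and 1 in the controls and of 11, 11 and 8 after knockdown.

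KRT19 lies in the type I keratin cluster at chr17:41523617-41528308, on the minus strand, with 11 other keratin genes of the table within 100 kb. Of these only KRT15, next to it at chr17:41513743-41522529 on the same strand, had enough counts to be tested. It was counted 21, 22 and 6 times in the control libraries and 126, 119 and 136 times after knockdown (log2 fold change 2.76, edgeR adjusted p = 2.99e-13), and it was picked out after its values were seen. The other 10 keratin genes had at most 20 counts in any library.

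Several epithelial genes listed with EPCAM rose where EPCAM fell. CDH1, the epithelial cadherin, rose from 10.1 ± 0.593 to 22.5 ± 2.68 CPM (log2 fold change 1.16, edgeR adjusted p = 1.64e-13), and SPINT1, a protease inhibitor of epithelial membranes, rose by 1.06. FHL2, an adaptor that binds the cleaved EPCAM tail, rose by 2.33 on the log2 scale, and CD9, a tetraspanin partner, rose by 0.26. In the list of keratins and EPCAM partners 7 of 12 tested genes rose, 3 fell and 2 did not pass (median log2 fold change 0.79), and 1 fell with library totals alone. CLDN7, a claudin partner of EPCAM, had at most 1 count in any library.

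**Figure D4:**
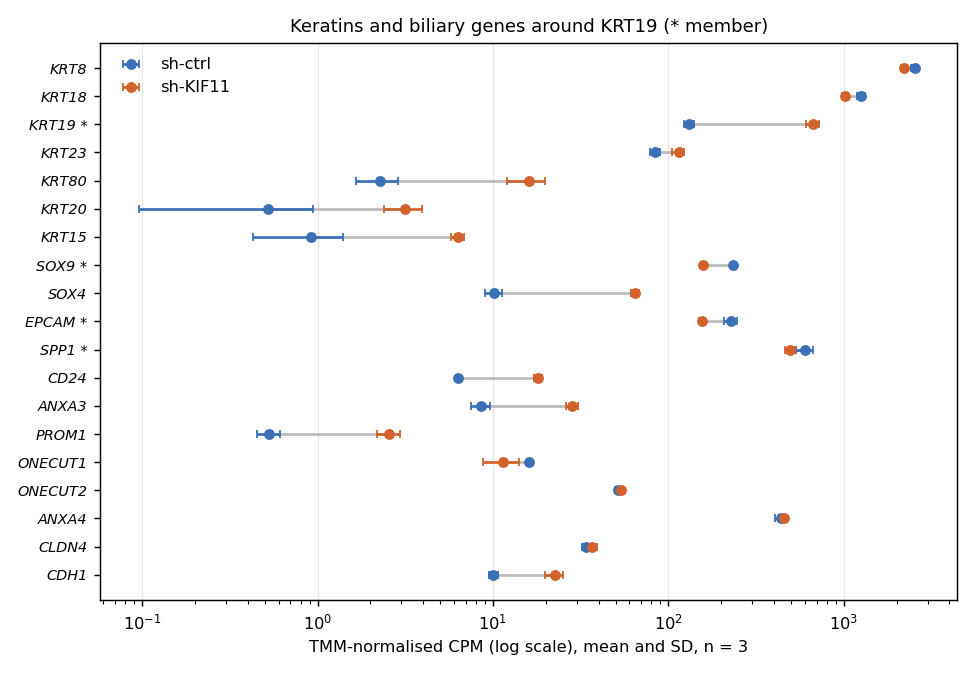
Mean normalised level with SD (horizontal axis, CPM on a log scale, n = 3 libraries) of keratins, of biliary and ductular genes and of CDH1 in sh-ctrl and sh-KIF11, with members marked by a star. KRT19, KRT80, KRT20, KRT15, SOX4, CD24, ANXA3, PROM1 and CDH1 moved to the right, and SOX9, EPCAM and ONECUT1 to the left.

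The biliary list, which includes SOX9, EPCAM, KRT19 and SPP1, held genes that rose and genes that fell. Of 20 genes 14 were tested, with 6 higher, 5 lower and 3 that did not pass (median log2 fold change 0.09). SOX4, which acts with SOX9 in bile duct formation, rose from 203, 166 and 165 counts to 1217, 1383 and 1292 (log2 fold change 2.67, edgeR adjusted p = 1.09e-27), and ANXA3, an annexin, rose by 1.72. Of the surface markers, CD24 rose by 1.52 on the log2 scale from a mean of 6.31 CPM. PROM1 rose by 2.26 from 8, 11 and 9 counts in sh-ctrl to 57, 56 and 42 in sh-KIF11, and was tested only through sh-KIF11. ONECUT1, a transcription factor of bile duct development, fell by 0.49, and its paralog ONECUT2 had a log2 fold change of 0.05 (edgeR adjusted p = 0.462). The 6 untested genes, among them KRT7, CFTR, AQP1, FXYD2 and MUC1, had at most 11 counts in any library. The deposited tables disagree on FXYD2, which had 3 to 8 counts but means of 46.5 FPKM in the controls and 30.7 FPKM after knockdown, so its level is uncertain.

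Among the SOX factors SOX4 was the only riser. Of 8 tested, SOX4 rose, SOX9, SOX12, SOX13 and SOX18 fell and 3 did not pass with TMM (median log2 fold change -0.18), and with library totals alone 3 were higher. SOX18, an endothelial SOX factor, fell by 0.81 on the log2 scale (edgeR adjusted p = 3.46e-11) and SOX13 by 0.74 (edgeR adjusted p = 1.67e-11). SOX9 shared with these 2 genes its direction, and not with SOX4.

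The Notch pathway, to which DLK1 and SOX9 are linked in the biliary lineage, had 42.1% of its tested genes called with TMM, beside 69.1% of all tested genes, and the difference was not tested. Of 19 tested genes 4 rose, 4 fell and 11 did not pass with TMM (median log2 fold change 0.10), and with library totals alone 10 rose and 1 fell. Of the 11, NOTCH3, NOTCH4, DLL3 and DLL4 had low control means of 0.661 to 1.59 CPM, and NRARP and HES1 had 3.75 and 10.3 CPM. ADAM10, ADAM17, MAML1, NUMB and RBPJ had 49.4 CPM or more. The ligand JAG1 rose by 0.38 on the log2 scale (edgeR adjusted p = 9.13e-09), and JAG2 by 1.09 from a mean of 0.806 CPM. The receptor NOTCH2 rose from 12.3 ± 1.25 to 23.3 ± 2.92 CPM (log2 fold change 0.91). Another receptor, NOTCH1, was lower by 0.25 (edgeR adjusted p = 0.0466). DLK2, the paralog of DLK1, rose by 0.87 from under 1 CPM. HEY1 and HES4, target genes of the pathway, fell by 0.53 and 0.34, and HES1 had a log2 fold change of -0.06 (edgeR adjusted p = 0.681).

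Receptors and processing enzymes of osteopontin were called in both directions. Of 16 genes 7 were tested, with 5 higher and 2 lower (median log2 fold change 1.04), or 1 lower with library totals alone. Among the 5, MMP2 and ITGA5 passed the count filter only through the knockdown libraries, so they could enter this tally only as risers. ITGA5 was counted 9, 9 and 5 times in the controls and 25, 31 and 36 times after knockdown. When at least 10 counts were required in every library, 5 genes were tested, with 3 higher and 2 lower. The integrin chain ITGAV rose from 157 ± 10.2 to 324 ± 7.71 CPM (log2 fold change 1.04, edgeR adjusted p = 2.40e-21) and its partner ITGB1 by 0.32, whereas ITGB5 was lower by 0.20. MMP2, a matrix protease, rose from 6, 3 and 3 counts to 143, 167 and 117 (log2 fold change 4.91, edgeR adjusted p = 2.01e-18), and PLAU, the urokinase gene, rose by 2.34. F2, the liver gene of thrombin, which cleaves osteopontin, fell by 1.17. CD44, the other osteopontin receptor, had at most 11 counts in any library.

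Other surface markers of liver progenitors and liver cancer stem cells did not follow EPCAM as a group. Of 7 tested, CD24, PROM1, CD47 and LGR5 rose, ANPEP and ICAM1 fell by 0.91 and 0.93 on the log2 scale, and ALCAM did not pass (median log2 fold change 0.28). PROM1 rose from a mean of only 0.53 CPM in sh-ctrl. CD47, a signal against phagocytosis, rose by 0.49 and LGR5, a stem cell receptor linked to WNT signalling, by 0.28. KIT, THY1 and CD34 had no count in any library.

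**Figure D5:**
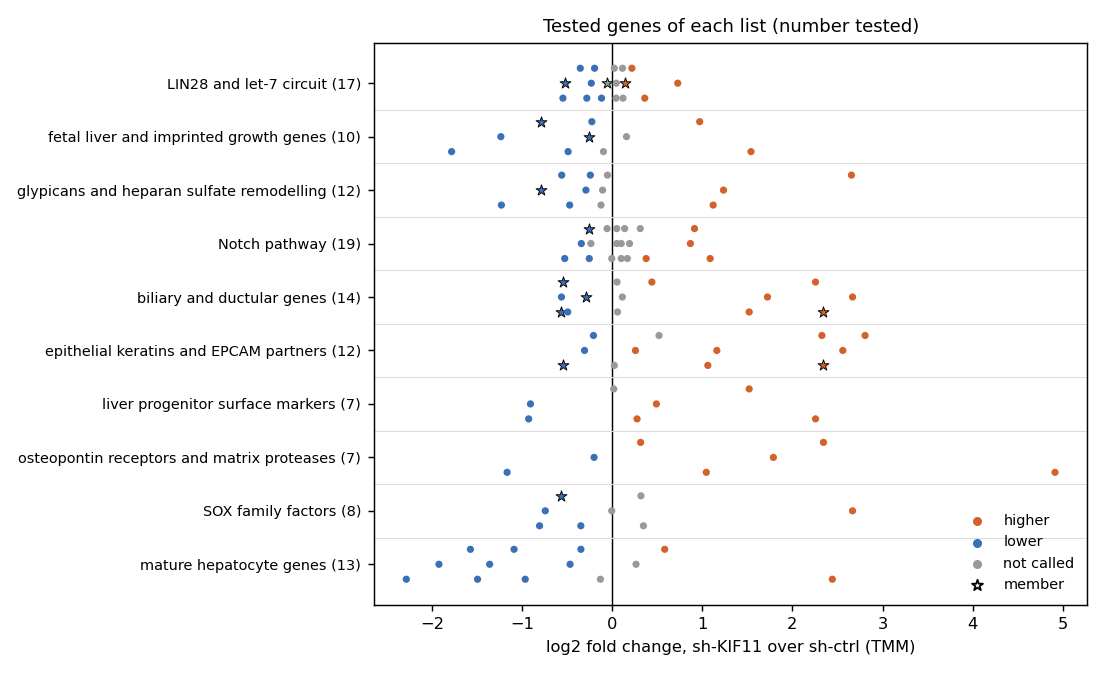
log2 fold change (horizontal axis, TMM) of every tested gene in 10 lists, coloured by its call at an adjusted p of 0.05, with the members as stars and the number of tested genes in parentheses. The biliary and keratin lists spread to both sides of 0, and 9 of 13 mature hepatocyte genes lay to the left with a call.

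Markers of other cell states and types moved in these libraries too. Of 15 mature hepatocyte genes 13 were tested, 9 were lower and 2 higher (median log2 fold change -0.96), and their summed level was 30059 to 31435 CPM in sh-ctrl and 13480 to 14543 CPM in sh-KIF11. TF (transferrin) and APOA1 fell by 2.28 and 1.92. CPS1 rose by 0.58, and CYP2E1, tested only through its sh-KIF11 counts, rose by 2.44 from a mean of 0.419 CPM. The part of the hepatocyte gene levels in the changes of the members was not tested. In bulk RNA a change in the share of cells with a marker and a change in RNA per cell cannot be told apart.

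Markers of fibroblasts, endothelium and leukocytes were mostly at or near 0. The untested genes of these lists, among them COL1A1, COL3A1, DCN, CDH5, PTPRC and CD3E, had at most 9 counts in any library. Of 9 fibroblast and stellate markers 2 were tested, with ACTA2 higher by 1.03 and PDGFRB lower by 1.16. The summed level was 93.4 to 97.6 CPM in sh-ctrl and 186 to 198 CPM in sh-KIF11. Nearly all of it was ACTA2, with means of 91.9 CPM in sh-ctrl and 188 CPM in sh-KIF11. Of 7 endothelial markers 2 were tested and VWF rose by 1.01, with sums of 3.16 to 3.61 CPM and 4.69 to 4.98 CPM. Of 8 leukocyte markers 3 were tested and all 3 fell, CD14 and CD68 among them, with sums of 85.6 to 95.2 CPM and 45.3 to 49.6 CPM. Most of these sums was CD68, with means of 82.3 CPM in sh-ctrl and 44.2 CPM in sh-KIF11.

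The genes with the nearest profile to the 3 members that changed most were sought among the 8540 other called genes, by the root mean square distance of centred log2 CPM over the 6 libraries. Nearest to KRT19 were LSP1, an actin-binding protein (distance 0.0743, log2 fold change 2.26), and TUBB6, a beta-tubulin (0.0784, log2 fold change 2.28), and only 3 genes lay within 0.1. Nearest to GPC3 were FN1, fibronectin (distance 0.0401, log2 fold change -0.76), and COL9A3, a collagen chain (0.0439, log2 fold change -0.77). Nearest to SOX9 were PCBP2, an RNA-binding protein (distance 0.0188, log2 fold change -0.55), and HJURP, a centromere chaperone (0.0198, log2 fold change -0.58), with 1058 genes within 0.1. Fewer called genes thus lay within 0.1 of KRT19 than of SOX9. With 2 groups this number largely follows the size of the fold change, so it is no separate result.

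How far reads of a member could come from another gene was read from the annotation (GENCODE 29, GRCh38). No 50-base stretch of the GPC3, DLK1, SOX9, IGF2BP1 or SPP1 transcript occurred in a transcript of another gene. Of the KRT19 transcript 1.79% of such stretches were shared with the pseudogene KRT19P1, and 2.57% of EPCAM, 1.1% of LIN28B and 9.47% of IGF2BP3 were shared with other genes. GPC3, SOX9, EPCAM, LIN28B, IGF2BP1 and IGF2BP3 overlap genes on the opposite strand (RPSAP63, SOX9-AS1, RN7SKP119, LIN28B-AS1, AC091133.2 and the coding gene MALSU1 among them). The kit keeps the strand, but the strand setting used for counting is not given in the sources used here, so reads of such partners may be included. EPCAM (MIR559 and RF00017) and IGF2BP1 (the pseudogene AC091133.4 and RNU6-826P) also overlap genes on the same strand, which the strand cannot separate. DLK1, KRT19 and SPP1 overlap no annotated gene.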

How the data were processed

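Poly(A) RNA of 6 HepG2 libraries was analysed, 3 sh-ctrl and 3 sh-KIF11, grouped by the sample labels. In the tables the knockdown columns are named shRNA only and were matched to sh-KIF11 by number, since the labels list no other hairpin besides the control. No column of values was left unused. The authors deposited raw counts per gene and a table of FPKM, which are reads relative to the length of a transcript and the size of its library. The submitters' processing notes name GRCh38, Trimmomatic, HISAT2 2.1.0, HTSeq 0.9.1 and Cufflinks 2.2.1, with no roles given.

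Counts were tested in R 4.3.3 with edgeR 4.0.16 (filterByExpr, TMM factors, quasi-likelihood test, group as the only term, two-sided, Benjamini-Hochberg adjustment, threshold 0.05). The filter left out 7661 genes. The standard error is the absolute log2 fold change divided by the square root of the F statistic, and intervals are at 95%. The biological coefficient of variation was 4.87%. log2 CPM used a prior count of 2. Ratios of members were compared with the exact permutation test. Counting error weighs most on GPC3, the member with the fewest counts, and the number of libraries limits the precision of all. The procedures were tested on simulated data in which few genes changed, equally many up and down. Such data cannot test how calls depend on the scaling when most genes change. Matches were searched in GENCODE 29 transcripts with an annotated stop codon, and mature microRNAs came from RefSeq.

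The members and gene lists were chosen with earlier results of these data known. The genes named are the 9 members, KIF11, from each list up to 2 with the largest positive and 2 with the largest negative change past the threshold, any other gene of a list needed to state a role, and the 2 nearest profiles of the 3 members that changed most. Alternatives were RLE, upper-quartile and no factors, 2 other count filters, a replicate block, each library left out, DESeq2 1.42.0, limma 3.58.1 on log2(FPKM + 1) and log2(FPKM + 0.1), and an adjusted p of 0.01. Single values of a few genes of the lists are not reported here.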

Additional observations from a re-analysis of the deposited data

How the results depend on the processing

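KIF11, KRT19, GPC3, SOX9, EPCAM and LIN28B kept their direction and call in all 17 alternatives, and the 4 ratios of members kept their direction in all 11 run for them. DLK1 lost its call with library totals (-0.024) and with limma on log2(FPKM + 1), on log2(FPKM + 0.1) and with a mean FPKM of at least 1 (-0.074, -0.076 and -0.074), and so did SPP1 (-0.055, then -0.16 in each). IGF2BP1 changed sign with upper-quartile factors (0.021), library totals (0.17) and the 3 limma fits (0.11 in each), and leaving out each library gave -0.11 to -0.023. IGF2BP3 ranged from 0.10 to 0.19 with each library left out and kept 0.15 at an adjusted p of 0.01, where only 1 member was higher; leaving out each library gave 1 to 2 higher. The share of called genes that were higher was 49.8% with TMM, 58.5% with upper-quartile factors, 73.6% with library totals and 65.3 to 69.7% with limma on FPKM, so counts in lists shifted upwards. With upper-quartile factors, library totals and the 3 limma fits in turn, the LIN28 and let-7 list had 7, 11, 9, 7 and 9 higher and Notch 9, 10, 10, 8 and 8, and with the last 4 of these 3 lower in the former and 1 in Notch, in keratins and in the osteopontin list. Biliary genes had 3 and 2 lower with limma at pseudocounts of 1 and 0.1, SOX factors 3 higher with library totals and 2 with log2(FPKM + 0.1). With at least 10 counts in every library, or a mean FPKM of at least 1, the osteopontin list had 3 higher and the hepatocyte list 1. The cause of these shifts beyond the scaling and the filters was not tested. The replicate numbers did not pair the libraries (correlations of same-numbered deviations 0.030, -0.018 and -0.0025); a replicate block gave 8607 called genes and 2.33 for KRT19, and changed no call of a member.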
